A study of Mus musculus with 4 samples.

Results

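The cytotoxic granule genes described here are Gzma, Gzmb, Gzmc, Prf1, Nkg7 and Srgn, 6 genes chosen by name from the 18191 gene names tabulated in the study. All 6 were tabulated in every library, and in either pair each reached an FPKM of 1 in 1 or both libraries. The study sequenced RNA of group 3 innate lymphoid cells (ILC3s) from the mouse small intestine at steady state, sorted as live cells with low CD45, high CD90.2 and no CD3, among other gates. There were 4 libraries, 1 in each group: ILC3s of IL-17D-deficient mice (KO, genotype Il17d-KO) and of wild-type mice (WT), and WT ILC3s with surface CD93 (CD93-positive) or without it (CD93-negative). The suspension was held 12 h in culture with no stimulus before the CD93 sort, and the labels give this protocol for all 4 libraries, so whether it covered the KO and WT cells is unclear. IL-17D is a cytokine of the IL-17 family, and CD93 is a surface glycoprotein reported as its receptor. The age and sex of the mice, the kind of Il17d allele and whether animals were pooled are not stated in the sources used here. Il17d itself was not analysed here, which leaves the genotypes unchecked.

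Killer lymphocytes store perforin and granzymes in secretory granules. When the granules fuse with the membrane facing a target cell, perforin opens pores and the granzymes, which are serine proteases, enter the cell and cut its proteins. Granules are best known from NK cells and CD8 T cells, including the T cells of the gut epithelium. ILC3s are mainly cytokine producers, and those that express T-bet share genes with NK cells and ILC1s.

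Levels are given as FPKM, which divides the reads of a gene by its length and by the size of the library, so they can be set beside each other between genes of a library. Differences are log2 of FPKM + 1 in the first-named library over that in the second, which understates the differences of low genes, and a gene was counted as apart at 2-fold or more. FPKM ratios carry 95% exact (Clopper-Pearson) intervals from recovered read numbers. Each group is 1 library, which gives neither replicate error nor a test: the intervals cover counting error only and compare libraries, not conditions. The tables of both pairs were made with different gene sets, and levels are compared only within a pair. The library sizes used for FPKM were found as the totals that make the recovered reads whole numbers. They were 27002581 reads in KO, 26087275 in WT, 11712846 for CD93-positive cells and 11790581 for CD93-negative ones. The ILC3 label was checked on 12 markers, all of which had an FPKM above 0 in every library. Il23r, which encodes the IL-23 receptor, had 243 in KO and 258 in WT, and its level was 47.1 in CD93-positive cells against 42.7 in CD93-negative cells.

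Positions are those of the mm10 genome in GENCODE M21. Gzmb (chromosome 14, 56258838 to 56262260) and Gzmc (56231441 to 56234656) are neighbours on the minus strand, in the cluster that also holds Gzmd, Gzme, Gzmf, Gzmg and Gzmn. Gzma lies on chromosome 13 (113093825 to 113100981, minus strand), Nkg7 on chromosome 7 (43437073 to 43438249, plus strand), and Prf1 (61297833 to 61304680, plus strand) and Srgn (62493833 to 62527451, minus strand) on chromosome 10. None of the 6 overlaps another annotated gene. The coding sequences of Gzmb and Gzmc were 76.2% identical, with a longest shared run of 49 bases, and Gzmc shared a run of 68 bases with Gzme. How reads that fit several granzymes were assigned is not stated in the sources used here, so values of the chromosome 14 granzymes are less certain than that of Gzma, whose longest shared run with any of the others was 13 bases.

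The promoter windows of 4 of the genes are shown because Gzma and Nkg7 were the members that stood at least 2-fold apart in the CD93 pair, while Gzmb and Gzmc are neighbours with similar levels there. Each runs 5′ to 3′ from 250 bases before to 50 bases after the RefSeq start (GRCm38.p6), and all 6 genes had such a window. Capitals mark matches on either strand to the RUNX core TGTGGT, the T-box core GGTGTGA, the AP-1 site TGANTCA, the cAMP response element core TGACGT and the ROR core AGGTCA.
Gzma, chr13:113100932-113101231, minus strand: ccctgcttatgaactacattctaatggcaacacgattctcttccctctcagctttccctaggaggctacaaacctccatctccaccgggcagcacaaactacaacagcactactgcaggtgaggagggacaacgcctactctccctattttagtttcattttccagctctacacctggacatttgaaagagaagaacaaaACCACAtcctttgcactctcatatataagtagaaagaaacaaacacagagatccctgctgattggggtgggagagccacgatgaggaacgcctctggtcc
Gzmb, chr14:56262285-56262584, minus strand: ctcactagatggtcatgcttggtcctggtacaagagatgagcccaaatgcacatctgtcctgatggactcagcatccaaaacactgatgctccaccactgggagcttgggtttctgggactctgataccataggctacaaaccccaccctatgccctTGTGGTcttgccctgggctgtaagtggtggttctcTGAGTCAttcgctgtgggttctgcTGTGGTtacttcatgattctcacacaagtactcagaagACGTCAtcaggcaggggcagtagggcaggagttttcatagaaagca
Gzmc, chr14:56234608-56234907, minus strand: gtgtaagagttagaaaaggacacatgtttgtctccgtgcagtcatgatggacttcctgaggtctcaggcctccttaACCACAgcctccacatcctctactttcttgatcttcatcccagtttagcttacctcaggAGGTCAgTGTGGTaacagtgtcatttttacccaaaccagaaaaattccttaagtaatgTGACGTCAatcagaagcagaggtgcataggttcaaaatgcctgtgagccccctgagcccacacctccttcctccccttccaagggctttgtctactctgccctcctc
Nkg7, chr7:43436888-43437187, plus strand: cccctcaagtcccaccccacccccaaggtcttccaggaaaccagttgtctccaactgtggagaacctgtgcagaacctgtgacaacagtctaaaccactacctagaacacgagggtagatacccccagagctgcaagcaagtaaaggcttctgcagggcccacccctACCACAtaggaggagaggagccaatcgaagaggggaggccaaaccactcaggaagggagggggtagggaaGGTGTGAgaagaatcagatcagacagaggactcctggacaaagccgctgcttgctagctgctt
The RUNX core stood in the windows of Gzma, Gzmb, Gzmc, Prf1 and Nkg7 and in a further Srgn window, against 16.7% of 32544 windows of the table. The T-box core stood in that of Nkg7 (3.95% of windows) and the AP-1 site in that of Gzmb (7.79%). The cAMP response element core stood in those of Gzmb, Gzmc and Prf1 and in the further one of Srgn (7.55%); in Gzmc it lies on both strands, overlapping in 1 palindrome. The ROR core stood in that of Gzmc (16.2%). The Gzmb window ends before the GENCODE start of that gene. The Gzmb and Gzmc windows were 46.2% identical, near the 44.2% of Gzma with Gzmb. A match is a run of letters and not a measured binding site.

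In KO against WT ILC3s, Gzma was higher, Gzmc was lower and Gzmb was nearly level. Of the 6 genes, Gzma was at least 2-fold higher and Gzmc at least 2-fold lower. The background of this pair was 29.3% of 12376 measured genes (16.6% higher, 12.7% lower), to which 2 of 6 is near. It depended on the reads of a gene over the pair. Among genes with 1000 to 10000 reads, to which Gzma, Gzmb and Gzmc belong, it was 13.5% (8.78% higher, 4.73% lower). With 100 to 1000 reads, as for Prf1, it was 40.8% (22.5% higher, 18.3% lower), and with at least 10000, as for Nkg7 and Srgn, 4.4% (3.21% higher, 1.18% lower).

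Gzma encodes granzyme A, a protease that cuts after basic residues. Its FPKM was 113 in the KO library (3065 reads) and 34.6 in the WT library (908 reads), a log2 difference of 1.68 and a ratio of 3.26 (3.03 to 3.52). Granzyme B, which cuts after aspartate and can activate caspases, had a level that hardly differed: Gzmb had 36.6 in KO (1421 reads) and 36.2 in WT (1355 reads), a ratio of 1.01 (0.940 to 1.09). Gzmc encodes granzyme C, which in mouse studies kills without caspases. It had 50.4 in KO (1217 reads) and 107 in WT (2507 reads), a log2 difference of -1.08 that makes it 2.13-fold lower (1.99 to 2.29). With both libraries scaled to a common sum the Gzmc difference was -0.91, under the 2-fold limit.

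The 3 granzymes had a similar summed level, 200 FPKM in KO and 178 in WT, with a different make-up. Gzma made up 56.4% of that sum in KO and 19.4% in WT, and Gzmc made up 25.2% in KO and 60.3% in WT. Gzmb made up 18.3% and 20.3% in the same libraries. Ratios between genes of a library do not depend on its scaling, and their 95% intervals are large-sample ones for counting error. The Gzma to Gzmb ratio was 3.08 in KO and 0.957 in WT, 3.22-fold higher (2.90 to 3.57), and the Gzmc to Gzmb ratio was 1.38 in KO and 2.97 in WT, which is 2.16-fold lower in KO (1.95 to 2.39).

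**Figure D1:**
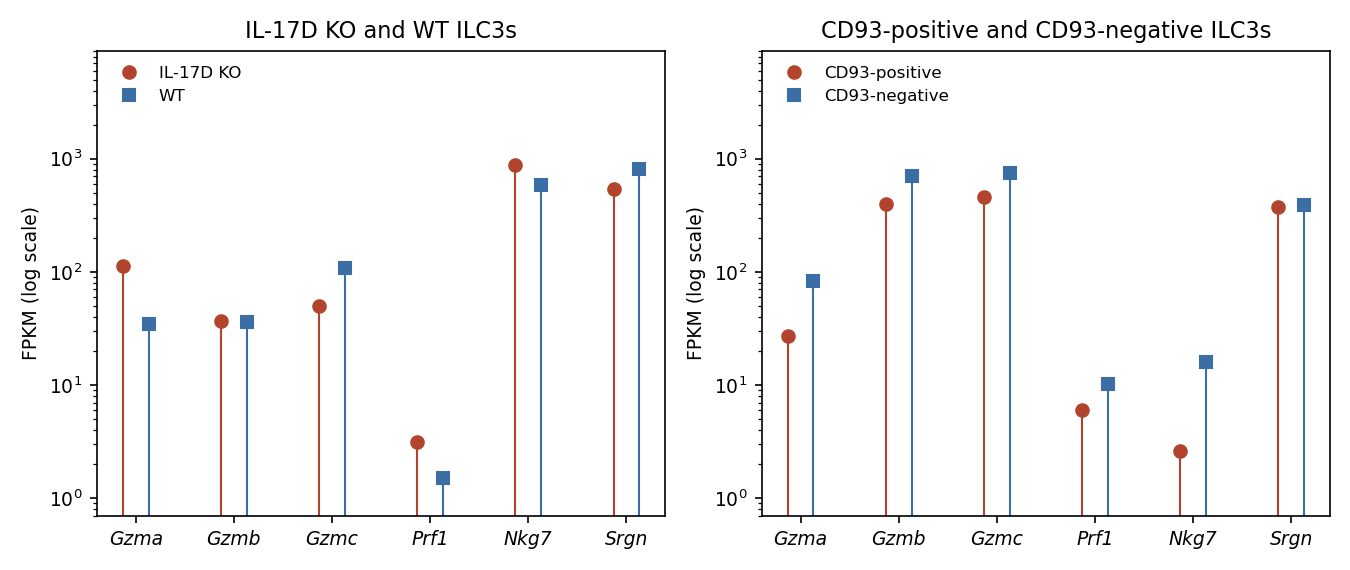
FPKM of the 6 genes on a log axis in each library, with KO (circles) left of WT (squares) in the left panel and CD93-positive (circles) left of CD93-negative (squares) in the right panel; each symbol is 1 library and there are no error bars. Gzma and Gzmc differ in opposite directions on the left, while all 6 symbols of CD93-positive cells on the right are below those of CD93-negative cells, with Srgn nearly level.

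The other 3 genes encode the pore former and proteins of the granule itself. Prf1, the perforin gene, was the lowest of the 6 in both libraries, with an FPKM of 3.12 in KO (218 reads) and 1.498 in WT (101 reads). The ratio was 2.09 (1.64 to 2.67), while its log2 difference of 0.72 with the pseudocount was below the 2-fold limit. Nkg7 encodes a granule membrane protein that mouse NK and T cells need for degranulation. It was the highest of the 6 in KO, with 881 (21755 reads), and had 587 in WT (14005 reads), a ratio of 1.501 (1.47 to 1.53). It ranked 67 of 15242 rows in KO and 120 in WT. Srgn encodes serglycin, the proteoglycan that holds granzymes in the granule and that most blood cells make. It had 545 in KO (32323 reads) and 808 in WT (46292 reads) and was 1.48-fold lower in KO (1.46 to 1.504). The order of levels was therefore Nkg7, Srgn, Gzma, Gzmc, Gzmb and Prf1 in KO, and Srgn, Nkg7, Gzmc, Gzmb, Gzma and Prf1 in WT. The 95% exact Poisson intervals of neighbouring levels did not overlap except for Gzmb (34.3 to 38.2) and Gzma (32.4 to 36.9) in WT.

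Some markers of other lymphocytes differed between these libraries too, where 29.3% of measured genes were at least 2-fold apart (16.6% higher, 12.7% lower). The T cell list stood above that share, while the NK cell and ILC1 list and the CD8 and intraepithelial list were near it. Of 12 T cell markers, 9 were at least 2-fold higher in KO and 0 lower, with a summed FPKM of 1356 in KO and 918 in WT, although CD3-positive cells were left out of the sort. Cd3e had 3.14 in KO and 0.780 in WT, and Trac had 177 and 86.7 in the same libraries. Of 13 NK cell and ILC1 markers with a value, 4 were higher and 1 lower, with sums of 351 in KO and 349 in WT. Klrb1c, which encodes NK1.1, had 29.5 in KO and 10.03 in WT; Klra3 was listed at 0 in KO and had 1.70 in WT. Of 8 markers of CD8 and intraepithelial T cells, 2 were higher, Cd8b1 (2.87 in KO and 0.879 in WT) and Cd160 (29.9 and 10.4), which is also in the list before, while Cd8a was at 0.631 in KO and 1.47 in WT and the list summed to 1565 in KO against 1822 in WT. Of 2 mast cell and basophil markers with a value, Cpa3 was listed at 0 in KO and had 4.62 in WT, and the list summed to 1.48 in KO against 5.71 in WT. The part of these cells in the granule gene values was not tested. In bulk RNA, a different share of cells of a type and different RNA per cell cannot be told apart.

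CD93-positive ILC3s had lower values of all 6 genes than CD93-negative ILC3s, with Nkg7 and Gzma at least 2-fold lower and Srgn nearly level. The median difference was -0.78, against 0.04 over all 10117 measured genes. The background was 4.43% of measured genes (2.49% higher, 1.94% lower), against 2 of the 6 genes, both lower. As deposited, 252 genes were higher and 196 lower. Scaled to the mean of both sums, these counts were 173 and 296, with a common sum 290 and 732, and with a common sum that leaves out receptor segments, small RNAs and the mitochondrial and ribosomal protein genes 295 and 759. Among genes with 100 to 1000 reads, as for Nkg7 and Prf1, the background was 4.55% (2.4% higher, 2.15% lower). With 1000 to 10000, as for Gzma, it was 3.74% (2.37% higher, 1.37% lower), and with at least 10000, as for Gzmb, Gzmc and Srgn, 4.82% (3.61% higher, 1.2% lower).

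Nkg7 had the widest gap of the 6, with 2.62 FPKM (28 reads) in CD93-positive cells, against 16.0 (172 reads) in CD93-negative cells, a log2 difference of -2.23, 6.10-fold lower (4.08 to 9.45). Gzma had 27.0 in CD93-positive (318 reads) and 82.2 in CD93-negative cells (975 reads), a difference of -1.57, 3.05-fold lower (2.68 to 3.47). The granzyme B and C genes were the highest of the 6 in both libraries. Gzmb had 396 in CD93-positive (6666 reads) and 708 in CD93-negative cells (11981 reads), 1.79-fold lower (1.73 to 1.84). Gzmc had 456 in CD93-positive (4776 reads) and 750 in CD93-negative cells (7908 reads), 1.65-fold lower (1.59 to 1.71). In CD93-negative cells Gzmc ranked 13 and Gzmb 15 of 12546 rows, and in CD93-positive cells they ranked 42 and 55. Under 3 of the scalings tried, 1 of them to the mean of both sums, Gzmb passed the 2-fold limit with -1.01.

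Prf1 and Srgn differed less. Prf1 had 5.98 in CD93-positive (181 reads) and 10.1 in CD93-negative cells (309 reads), 1.70-fold lower (1.41 to 2.05). Srgn had 372 in CD93-positive (9567 reads) and 386 in CD93-negative cells (10000 reads), a ratio of 0.963 (0.936 to 0.990). The order of levels was Gzmc, Gzmb, Srgn, Gzma, Prf1 and Nkg7 in CD93-positive cells, and Gzmc, Gzmb, Srgn, Gzma, Nkg7 and Prf1 in CD93-negative cells, and the intervals of no neighbouring levels overlapped. Nkg7 ranked 8255 of 12546 rows in CD93-positive and 3148 in CD93-negative cells.

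**Figure D2:**
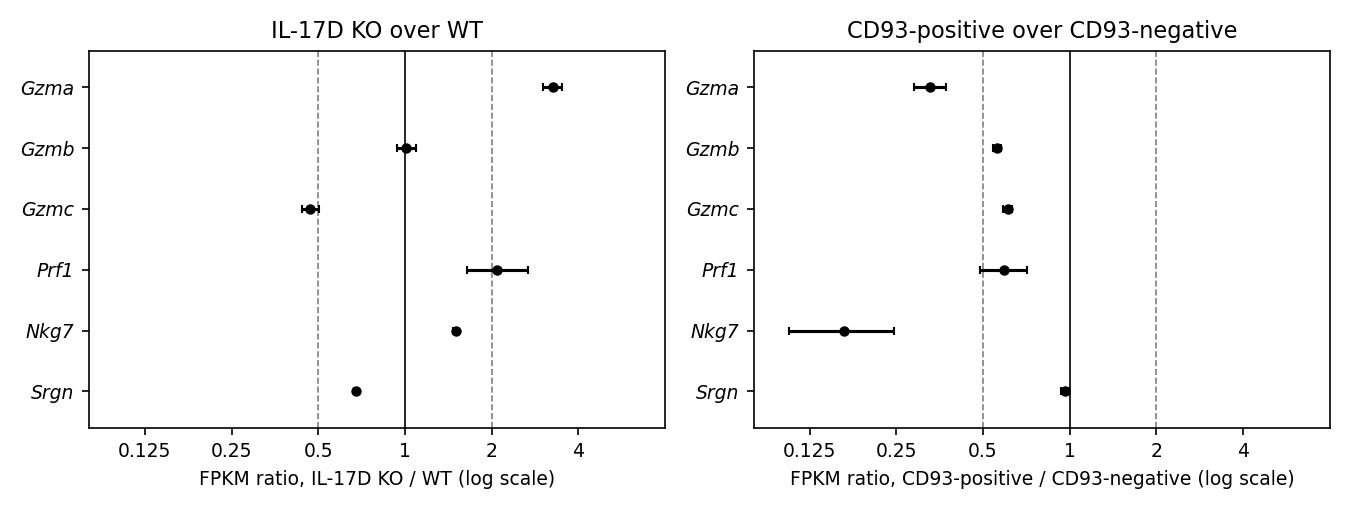
FPKM ratio of the 6 genes on a log axis, KO over WT in the left panel and CD93-positive over CD93-negative in the right panel; points are ratios of 1 library over another, bars are 95% exact counting intervals, and dashed lines mark 2-fold. Gzma has a ratio of 3.26 on the left and 0.328 on the right, while Gzmb has 1.01 on the left and 0.560 on the right.

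The make-up of the granzymes was much alike in the CD93 pair. They summed to 879 FPKM in CD93-positive cells, against 1540 in CD93-negative cells. Gzmb made up 45.1% of it in CD93-positive and 45.9% in CD93-negative cells, Gzmc 51.9% and 48.7%, and Gzma 3.07% and 5.34%. The Gzmc to Gzmb ratio was 1.15 in CD93-positive and 1.06 in CD93-negative cells, 1.09-fold higher (1.04 to 1.14), and that of Prf1 to Gzmb differed by 1.05-fold (0.874 to 1.27). Gzma and Nkg7 were lower beyond this: the Gzma to Gzmb ratio was 1.71-fold lower (1.498 to 1.94) and the Nkg7 to Gzmb ratio 3.42-fold lower (2.29 to 5.10) in CD93-positive cells.

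**Figure D3:**
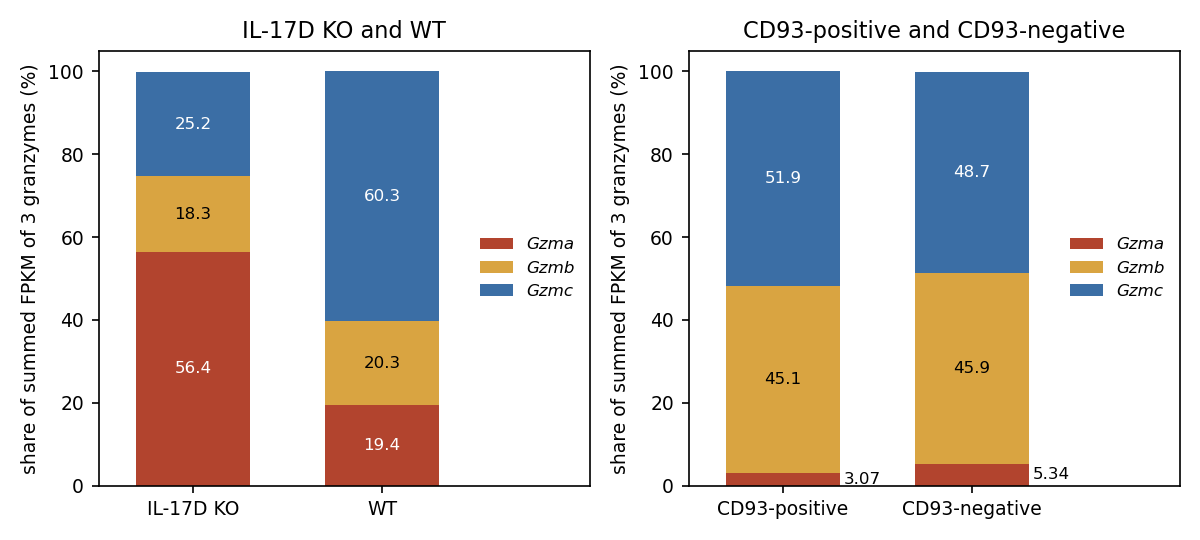
Share of the summed FPKM of Gzma, Gzmb and Gzmc that each gene made up, in percent, with KO left of WT in the left panel and CD93-positive left of CD93-negative in the right panel; each bar is 1 library. Gzma makes up 56.4% in KO and 19.4% in WT, whereas in both CD93 libraries Gzmb and Gzmc make up nearly the whole sum.

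Some NK and T cell markers were lower in the CD93-positive library, in a pair with 4.43% of measured genes at least 2-fold apart (1.94% lower). Of 10 measured NK cell and ILC1 markers 3 were at least 2-fold lower and 0 higher: Klrb1c (0.721 in CD93-positive and 15.3 in CD93-negative cells), Klrd1 (1.40 and 11.6) and Tbx21 (7.96 and 25.4). The summed level of the list ran the other way, with 1043 in CD93-positive and 791 in CD93-negative cells, of which Il2rb alone had 977 and 643. Of 5 measured T cell markers 2 were lower, Cd3d (0.141 and 1.87) and Cd3g (1.12 and 4.67), the list summing to 20.5 in CD93-positive cells against 24.7 in CD93-negative cells. None of 4 markers of CD8 and intraepithelial T cells was 2-fold apart (sums of 341 in CD93-positive cells against 271 in CD93-negative cells). Mast cell and basophil markers summed to 0.257 in CD93-positive cells against 2.93 in CD93-negative cells, and the 1 measured gene of that list, Cpa3, was at least 2-fold lower (0.056 in CD93-positive cells with 1 read, against 1.23 in CD93-negative cells with 22). Mcpt1, under an FPKM of 1, was listed at 0 in CD93-positive cells and had 0.920 in CD93-negative cells. The part of such cells in the granule gene values was not tested.

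Around the 6 genes, 9 lists of 95 genes of the killing machinery were followed, from the other granzymes to the receptors that induce them. In KO against WT, 9 of 77 measured members passed the 2-fold limit upwards and 5 downwards, 14 in all. Their median was -0.05 against 0.01 over all measured genes. The background of 29.3% is no like measure here, since the lists were not matched to it for reads. By reads over the pair it was 40.8% (100 to 1000), 13.5% (1000 to 10000) and 4.4% (at least 10000). In CD93-positive against CD93-negative cells, 6 of 83 were higher and 6 lower, 12 in all, beside a background of 4.43%. By reads over the pair this background was 4.55% (100 to 1000), 3.74% (1000 to 10000) and 4.82% (at least 10000). The lists were chosen with earlier results of these data known, so these counts are a description and do not test the lists. Their median was -0.0002 against 0.04 over all measured genes. With a common sum, with or without the gene classes left out above, 5 list genes were higher and 9 lower in this pair.

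Among other granzymes, Gzmk was listed at 0 in KO and had 2.26 in WT (82 reads), at least 28.3-fold lower against 3 reads in the KO library. In the CD93 pair Gzmd had 13.02 in both libraries and Gzme had 12.2 in CD93-positive and 13.4 in CD93-negative cells; their coding sequences are 93.3% identical, so the split between them is uncertain. Gzmm had 1.04 and 0.576 and Gzmf 0.929 and 0.369 in the same libraries. Of 11 genes of granule processing and membrane, Ctsw, which encodes cathepsin W of NK and CD8 T cells, was 2.96-fold lower in CD93-positive cells (2.65 to 3.31; FPKM 18.7 and 55.4) and had 118 in KO and 88.9 in WT. Ctsc, whose product activates progranzymes, had 10.9 in KO and 15.7 in WT, and 11.2 in CD93-positive and 16.8 in CD93-negative cells. Lamp2, a lysosome and granule membrane gene, was at least 2-fold lower in KO (2.06 and 6.63). Calr, the calreticulin gene, was the highest of this list in the CD93 pair, with 361 in CD93-positive and 222 in CD93-negative cells.

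Levels of granzyme and cathepsin inhibitors ranged widely. Serpinb9, whose product blocks granzyme B, had 670 in KO and 902 in WT, and 446 in CD93-positive and 290 in CD93-negative cells. Its level thus exceeded that of Gzmb in KO, WT and CD93-positive cells, and was below it in CD93-negative cells, where Gzmb had 708. Of 6 measured inhibitor genes 1 was at least 2-fold apart in KO against WT, where 29.3% of all measured genes were. This was Serpinb6a, with 0.288 in KO and 1.71 in WT. None of 7 was apart in the CD93 pair, against 4.43% of all measured genes. Cst7 is the cystatin F gene, whose product inhibits the cathepsin that activates granzymes. It had 24.5 in KO and 12.0 in WT, a ratio of 2.045 (1.78 to 2.35). In CD93-positive cells it had 1.99 against 4.64 in CD93-negative cells, 2.33-fold lower (1.41 to 3.98). With the pseudocount, its log2 differences of 0.97 and -0.92 were just under the limit.

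Of the release machinery, 0 of 12 measured genes were higher and 1 lower in KO, and 0 of 13 higher and 1 lower in CD93-positive cells. Over all measured genes, 16.6% were higher and 12.7% lower in KO, and 2.49% higher and 1.94% lower in CD93-positive cells. The lower gene of the release machinery was Sytl1, a synaptotagmin-like gene, in either pair. It had 0 in KO and 2.04 in WT, and 0.949 in CD93-positive and 3.10 in CD93-negative cells. Without the pseudocount, low members of the list had wider ratios in KO over WT: Lyst, the gene of a lysosomal trafficking regulator, had 1.60 in KO and 0.595 in WT, a ratio of 2.68 (2.33 to 3.09), and Unc13d, a granule priming gene, had 0.570 and 1.19. Dock8 had 12.5 in KO and 6.04 in WT. Vamp8, a SNARE gene and the highest of the list in the first pair, had 109 in KO and 120 in WT. Coro1a, the highest in the second pair, had 133 in CD93-positive and 118 in CD93-negative cells. Rab27a, needed for granule docking, had 46.5 in KO and 45.0 in WT. Among 10 measured enzymes that build the chondroitin sulfate chains of serglycin, the sulfotransferase genes Chst12 (14.9 and 6.28) and Chst15 (514 reads in KO and 6 in WT) were higher in KO, and none of 12 was 2-fold apart in the CD93 pair. Chsy1, the highest of this list in the first pair, had 83.5 in KO and 73.0 in WT; Chst11, an enzyme of the same list, had 56.9 in CD93-positive and 30.9 in CD93-negative cells.

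Genes of killing without granules had 3 of 6 members higher in KO, namely Fasl, Lta and Tnfsf10. Over all measured genes, 16.6% were higher in KO (22.5% at 100 to 1000 reads, 8.78% at 1000 to 10000). In the CD93 pair 4.43% of all measured genes were at least 2-fold apart. Fasl, the Fas ligand gene, had 111 in KO and 28.9 in WT, a ratio of 3.83 (3.62 to 4.06). Lta, which encodes lymphotoxin alpha, had 20.9 in KO and 5.74 in WT, and Tnfsf10, which encodes TRAIL, 4.37 and 1.17. In CD93-positive cells Fasl was 4.81-fold lower (3.73 to 6.26; 3.26 and 15.7), while Tnf (59.1 and 20.2), Lta (18.3 and 6.81) and Crtam (2.33 and 0.347) were higher. Ifng had 40.7 in KO and 28.8 in WT, and 5.54 in CD93-positive and 5.83 in CD93-negative cells. Among the intracellular targets of granzyme B, Bid, a BCL2 family gene, was lower in KO and had 1 read in KO and 275 in WT (FPKM ratio 0.0035, 8.9e-05 to 0.020). In the CD93 pair none of 6 measured members was 2-fold apart, and Mcl1, the highest gene of this list there, had 96.2 in CD93-positive and 110 in CD93-negative cells.

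**Figure D4:**
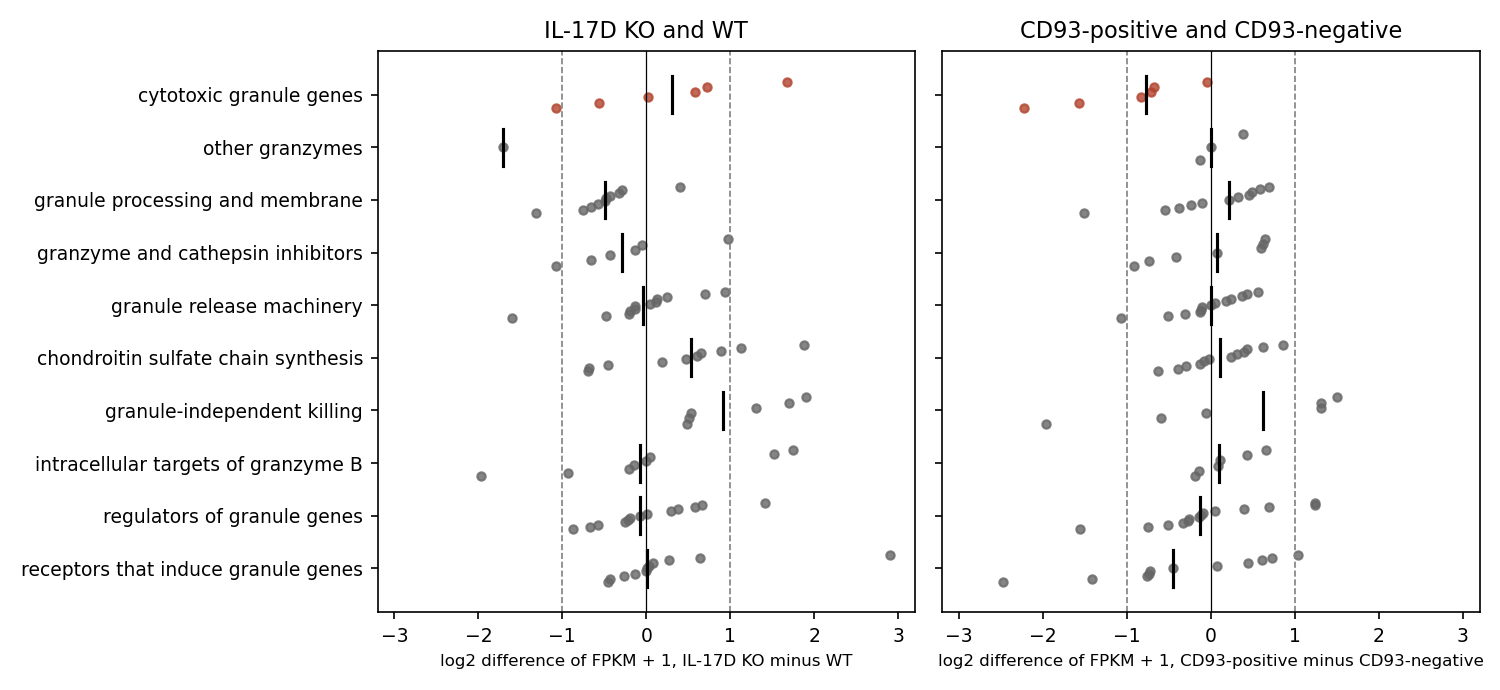
Log2 difference of FPKM + 1 for each measured gene of the 6 cytotoxic granule genes (red) and of the 9 lists of the killing machinery (grey), KO minus WT in the left panel and CD93-positive minus CD93-negative in the right panel; black bars are list medians and dashed lines mark 2-fold. The 6 granule genes spread from -1.08 to 1.68 on the left and lie at or below -0.05 on the right, while most other genes lie within the dashed lines.

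Among transcription factors, Tbx21, which encodes T-bet, an activator of granzyme and perforin genes in NK and T cells, was 3.19-fold lower in CD93-positive cells (2.75 to 3.72; 7.96 and 25.4). Zeb2, a zinc finger factor gene, was at least 2-fold higher there (8.38 and 2.99). In KO, Tbx21 had 4.53 against 7.80 in WT. There 1 of 13 measured factors was 2-fold apart, against 29.3% of all measured genes. This was Prdm1, which encodes BLIMP1 (2.39 in KO and 0.268 in WT). Runx3, whose product binds the RUNX core, had 41.3 in KO and 40.9 in WT, and 197 in CD93-positive and 150 in CD93-negative cells. The highest factor of the list was Bhlhe40 in KO (532, with 356 in WT) and Id2 in the CD93 pair (465 in CD93-positive and 287 in CD93-negative cells). Among receptors, Il12rb2, a chain of the IL-12 receptor, was 11.9-fold lower (8.30 to 17.7; 0.720 and 8.58) and Il18r1, the IL-18 receptor gene, 2.70-fold lower (66.5 and 179) in CD93-positive cells, while Il12rb1 was 2.07-fold higher (82.0 and 39.6). In KO the receptor at least 2-fold apart was Il21r, the IL-21 receptor gene (12.0 and 0.738). Il2rg, the common gamma chain gene and the highest receptor of the first pair, had 1439 in KO and 1442 in WT.

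The genes nearest to each granule gene were looked up over its 2 log2 differences, 1 per pair, among up to 3958 protein-coding genes that reached an FPKM of 5 in either library of each pair. Nearest to Gzma were Ccr9, a gut homing receptor gene (differences of 1.37 for KO and WT and -1.65 for the CD93 pair; distance 0.316), and Fasl (1.90 and -1.97; distance 0.456). Nearest to Nkg7 were Klri1, a killer lectin-like receptor gene (0.32 and -2.36; distance 0.299), and Ms4a6b (0.26 and -2.04; distance 0.373). Closer neighbours stood by Gzmb (Cblb and Gadd45b), Gzmc (Sp4 and Cd48), Prf1 (Rbm48 and Klhl6) and Srgn (Fbxo46 and Ggh), at distances of 0.009 to 0.116, where many genes have like values. With 2 differences a small distance is only a description.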

How the data were processed

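RNA was measured in 4 libraries, 1 per group. The FPKM values were computed and deposited by the authors; Bowtie2, featureCounts (Subread), edgeR, DESeq2 and build mm10 are named, per the submitters' processing notes, without roles, settings or versions. For each pair the deposited joint table was used, and the tables of single libraries held equal values in all 15242 and 12546 rows. The 6 genes and all lists were chosen with earlier results of these data known.

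Differences were log2 of FPKM with a pseudocount of 1; a gene counted as measured where its higher FPKM reached 1, and as apart where its log2 difference reached 1. Reads were recovered as FPKM times the union exon length in GENCODE M21: within 0.02 reads they were whole for 92.1% (KO), 91.9% (WT), 98.1% (CD93-positive) and 98.2% (CD93-negative) of values above 0 that had a length, and for all 6 genes in every library. Ratios got 95% exact intervals, ratios of ratios the 95% large-sample interval of the sample odds ratio on the log scale. The labels name no molecular identifiers, so PCR copies may count as separate reads. Folds against 0 reads are bounds against 3 reads. The steps were tested on simulated data.

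Genes were named by rule: the 6 genes, list genes at least 2-fold apart or highest in a list, and the 2 genes nearest to each of the 6. Genes named beside these, such as Ctsc, Cst7, Rab27a, Runx3 and Ifng, were chosen after their values were seen. Some genes of the lists that count in the totals are not reported here by name. No p-value is given, since each group is 1 library. Promoter windows are from RefSeq (GRCm38.p6). Other pseudocounts (0.1 and 5), filters and scalings and a 3-fold limit were tried. Python 3.11.15, scipy 1.17.1, pandas 2.3.3 and Biopython 1.88 were used.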

Additional observations from a re-analysis of the deposited data

How the results depend on the processing

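None of the 6 genes changed direction in either pair under the 6 other pseudocounts and scalings, but most of this was fixed in advance. A pseudocount cannot change a sign, and each scaling moved values up in KO against WT and down in the CD93 pair. Only Gzmc and Srgn in KO against WT could have changed sign. Over the settings Gzmc lay between -1.09 and -0.91 there, and Srgn between -0.57 and -0.40. Scaling to a common sum, or to the mean of both sums, put the median of all genes between 0.15 and 0.17 in KO against WT. In CD93-positive against CD93-negative cells it was then between -0.15 and -0.12. Relative to that median Gzma was at 1.68 to 1.70 in the first pair and -1.62 in the second. Gzmb was at 0.016 to 0.022 and -0.89 to -0.86. Subtracting the median takes the scaling out again, so these values are nearly constant by construction and do not test it. In KO against WT the number of the 6 genes at least 2-fold apart was 1, not 2, with a common sum, with both sums set to their mean, with a common sum that leaves out receptor segments, small RNAs and the mitochondrial and ribosomal protein genes, and with the 3-fold limit: Gzmc then lay between -0.91 and -0.93 under the scalings. Prf1 joined with the pseudocount of 0.1. In the CD93 pair 1 gene passed the 3-fold limit, Nkg7. Gzma, 3.05-fold lower by FPKM ratio, fell just short of it at -1.57 with the pseudocount. Of the other genes of the killing lists, 14 were apart in KO against WT as reported. This count fell to 4 (pseudocount of 5), 7 (FPKM of at least 5) and 8 (3-fold). It rose to 21 (pseudocount of 0.1), 18 (common sum), 19 (the same without those classes) and 16 (mean of both sums). In the CD93 pair it was 12 as reported, 7 (pseudocount of 5) and 2 (3-fold), and 14 with the pseudocount of 0.1 or either common sum. Over all measured genes, 3627 were apart in the first pair as reported, and 821 (pseudocount of 5), 1519 (FPKM of at least 5) and 1556 (3-fold). More were apart in the first pair with the pseudocount of 0.1 (4641), a common sum (4840) and the same without those classes (5003). In the second, 783 (pseudocount of 0.1), 169 (pseudocount of 5), 1022 (common sum), 1054 (the same without those classes) and 110 (3-fold) were apart. The low reads of Nkg7 in CD93-positive cells (28) and of Prf1 in WT (101) limit their folds. No paired analysis was possible because each group has 1 library.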

Other observations

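In KO, Klrd1, which encodes CD94, had an FPKM of 4.13 against 0.928 in WT, and Klre1 had 2.91 against 0.702, both at least 2-fold higher. Klrg1 had 17.02 in KO and 23.7 in WT, and Klrk1, which encodes NKG2D, had 58.0 in KO and 80.1 in WT. In CD93-positive cells, Klrk1 had 26.0 and Klrg1 6.88, against 43.7 and 10.5 in CD93-negative cells, and Xcl1, a chemokine gene of NK cells, had 5.55 against 12.0. Ncr1 encodes NKp46. Its level was 82.1 in KO against 80.03 in WT, and 14.8 in CD93-positive against 25.7 in CD93-negative cells.

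Markers of cells outside the lymphocyte lists also differed in the first pair, where the background was 29.3% (16.6% higher, 12.7% lower). Of 8 epithelial markers with a value, 5 were at least 2-fold higher in KO and 1 lower, with a summed level of 1065 FPKM in KO against 298 in WT. Of 7 macrophage and dendritic cell markers 5 were higher and 1 lower, with sums of 72.6 in KO and 18.1 in WT. Of 7 measured B and plasma cell markers, 3 were higher, with sums of 4679 in KO and 2844 in WT. In the CD93 pair, with a background of 4.43%, 1 of 4 measured epithelial markers was at least 2-fold apart. Epcam was 4.07-fold lower (2.73 to 6.24), with 1.21 in CD93-positive cells against 4.91 in CD93-negative cells. Epithelial markers summed to 22.5 in CD93-positive cells against 39.4 in CD93-negative cells. None of 8 measured macrophage and dendritic cell markers (sums of 56.1 and 48.2) and neither of 2 B and plasma cell markers (50.2 and 78.6) was 2-fold apart there. The part of these cells in the granule gene values was not tested.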
